A study of Mus musculus with 4 samples.

Results

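The genes examined here are 32 genes of blood cells other than red cells: 6 of blood progenitors, 20 of macrophages and other leukocytes, and 6 of megakaryocytes and platelets. They were chosen by name with earlier results of these data known, so that their counts beside those of all genes only describe the chosen genes. They were measured by 58 probe sets, among 45037 probe sets and 18193 named genes in all. Expression was measured on Affymetrix arrays in whole mouse embryos at embryonic day 9.5. The control group consisted of 6 embryos that carried either 2 intact copies of Cop1 (+/+) or 1 copy (+/-), and the null group of 6 embryos without a functional Cop1 gene. The labels do not say how the gene was inactivated. The RNA of the 6 embryos of a group was pooled and split into 2 portions, each hybridised to an array of its own. The 2 arrays of a group thus repeat the same RNA, and every p-value below measures the spread between such portions and not between embryos. Cop1 itself, whose only probe set checks the labels, read 11.35 and 11.26 in the control pool and 9.67 and 9.77 in the null pool (limma, adjusted p = 0.000728), with its position relative to the deleted part not known.

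Blood forms in the yolk sac of the early mouse embryo and enters the embryo once the heart beats. A primitive wave gives red cells, macrophages and megakaryocytes, and a later wave of erythro-myeloid progenitors, which carry KIT and the integrin CD41, seeds the fetal liver. Macrophages settle in all tissues, where they clear dying cells, and megakaryocytes shed the platelets. COP1 is a ubiquitin ligase whose known substrates include JUN and several ETS and C/EBP transcription factors.

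The 3 classes differed in what they did in embryos without Cop1. Of the 20 macrophage genes, 8 fell and 0 rose, and their differences (null minus control) had a median of -0.52 log2 units, led by the 3 genes of complement component C1q. Another 31 measured macrophage genes, outside the 32, did not show this fall: 1 rose, 1 fell and their median was 0.04. Of the 6 megakaryocyte genes, 3 rose and 0 fell, with a median of 0.60, and these were the platelet chemokine genes Ppbp and Pf4 and the integrin gene Itgb3. Of the 6 progenitor genes only Myb passed the test, and it fell 2.74-fold. The words rose and fell stand for an adjusted p under 0.05 (limma, Benjamini-Hochberg over all 45037 probe sets) together with a fold of 1.5 or more. By that rule 3.58% of all 18193 genes rose and 8.06% fell, and the median difference of all genes was -0.02. Over probe sets, 3 of the 58 rose and 14 fell, where 6.76% of all probe sets rose and 6.96% fell. Each gene is represented by its probe set of highest mean over the 4 arrays, and the other probe sets of the 32 genes are given beside it. In RNA of whole embryos, fewer cells of a type and less RNA per cell cannot be told apart.

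**Figure D1:**
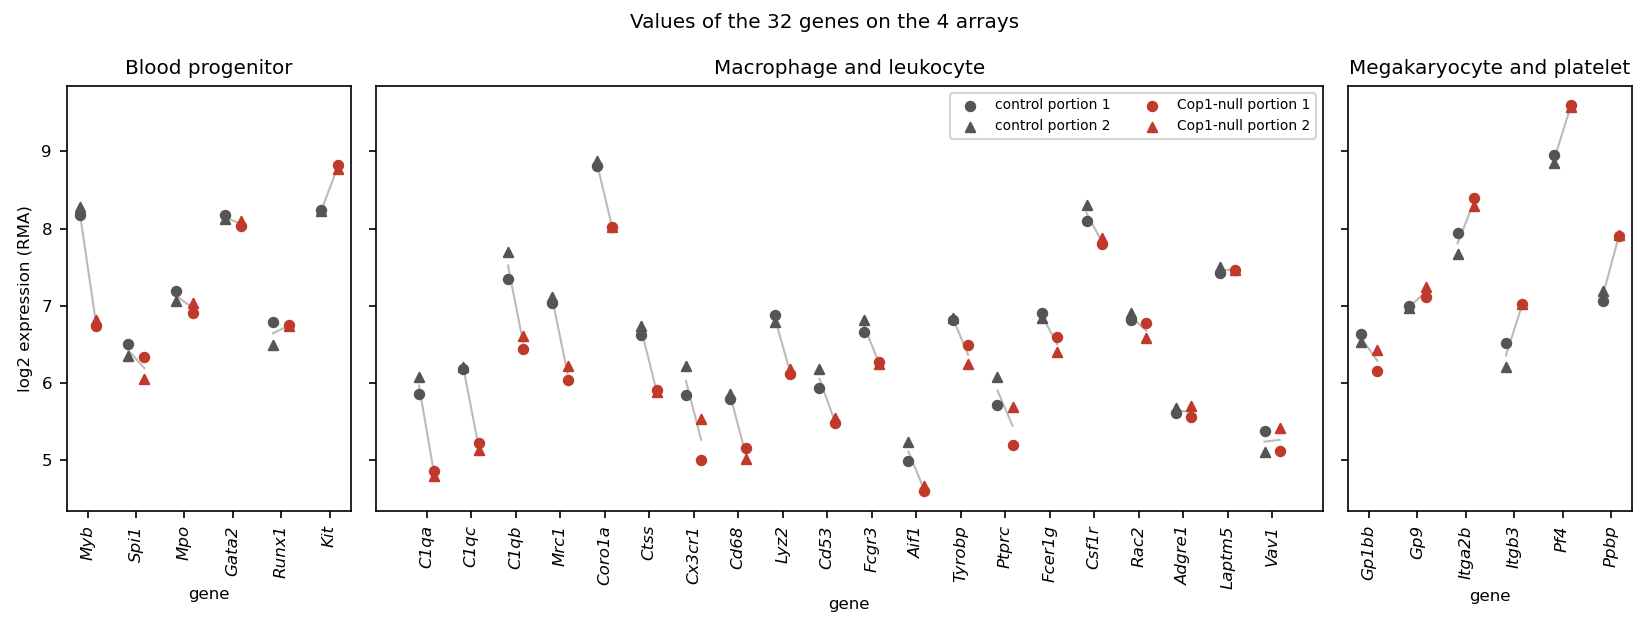
Log2 expression values of the 32 genes on the 4 arrays (y axis), with genes on the x axis in order of their difference within each class; grey points are the 2 control portions, red points the 2 Cop1-null portions, and a line joins the means. Myb and most macrophage genes read lower on both null arrays, and Pf4, Ppbp, Itgb3 and Itga2b read higher on both.

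The members that moved furthest include neighbours on the chromosome. In the RefSeq annotation of assembly GRCm38.p6, C1qb, C1qc and C1qa follow each other on chromosome 4 with no other coding gene between them, and Ppbp and Pf4 are adjacent on chromosome 5. The 250 bases before the start of the gene are shown from RefSeq for Myb, the most changed member, for C1qb, C1qc and Mrc1, which fell, and for the adjacent pair Ppbp and Pf4, which rose. They read 5′ to 3′ along the strand of the gene, and capitals mark the letters of 4 searched motifs: GAGGAA, the core bound by PU.1, then AGATAA, a site of GATA factors, then TGTGGT, a site of RUNX factors, and TGANTCA, the site of AP-1. Both strands were searched.
Myb (chr10:21160985-21161234, minus strand): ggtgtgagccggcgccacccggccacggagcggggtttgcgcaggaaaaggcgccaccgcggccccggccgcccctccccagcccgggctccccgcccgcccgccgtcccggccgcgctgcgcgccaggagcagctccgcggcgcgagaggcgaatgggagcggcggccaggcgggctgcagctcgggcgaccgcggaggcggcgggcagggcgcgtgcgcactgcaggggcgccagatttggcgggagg
C1qb (chr4:136886201-136886450, minus strand): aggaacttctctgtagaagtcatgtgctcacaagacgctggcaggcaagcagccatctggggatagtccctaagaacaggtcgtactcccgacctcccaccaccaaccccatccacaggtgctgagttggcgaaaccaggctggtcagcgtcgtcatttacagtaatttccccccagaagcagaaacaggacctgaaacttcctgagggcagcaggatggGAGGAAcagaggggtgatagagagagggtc
C1qc (chr4:136892915-136893164, minus strand): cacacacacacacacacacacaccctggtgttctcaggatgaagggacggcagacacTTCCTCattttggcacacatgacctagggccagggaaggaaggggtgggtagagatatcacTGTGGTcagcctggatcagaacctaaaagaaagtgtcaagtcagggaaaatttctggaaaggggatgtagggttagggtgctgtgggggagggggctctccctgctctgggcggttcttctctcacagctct
Mrc1 (chr2:14229164-14229413, plus strand): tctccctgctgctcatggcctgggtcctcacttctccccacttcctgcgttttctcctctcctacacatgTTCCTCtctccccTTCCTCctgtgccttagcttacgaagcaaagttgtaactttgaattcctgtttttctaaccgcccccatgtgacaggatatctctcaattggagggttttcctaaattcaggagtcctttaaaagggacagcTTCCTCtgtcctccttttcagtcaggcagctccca
Ppbp (chr5:90768268-90768517, plus strand): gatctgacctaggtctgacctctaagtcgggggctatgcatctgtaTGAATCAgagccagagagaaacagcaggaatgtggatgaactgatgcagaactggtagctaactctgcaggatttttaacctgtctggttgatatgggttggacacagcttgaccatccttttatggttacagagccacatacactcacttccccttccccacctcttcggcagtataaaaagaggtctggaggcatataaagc
Pf4 (chr5:90772185-90772434, plus strand): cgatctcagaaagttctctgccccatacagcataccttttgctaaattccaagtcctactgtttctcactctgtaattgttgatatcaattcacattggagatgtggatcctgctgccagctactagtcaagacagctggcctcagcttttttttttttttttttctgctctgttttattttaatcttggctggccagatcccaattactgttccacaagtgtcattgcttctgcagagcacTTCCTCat
In these windows C1qb had 1 match of the PU.1 letters, C1qc 1 and Mrc1 3, and C1qc also had 1 match of the RUNX letters. Pf4 had 1 match of the PU.1 letters, Ppbp had 1 of the AP-1 letters, and none of the 4 motifs was found in the window of Myb. No printed match overlapped another. The promoter table held 31 windows for 25 of the 32 members. The PU.1 letters occurred in 12 of 18 macrophage windows, 3 of 5 megakaryocyte windows and 4 of 8 progenitor windows, against 23.3% of all 32851 windows of the same length. The RUNX letters occurred in 4 of 18 macrophage windows (14% of all windows), the GATA letters in 1 (9.99% of all) and the AP-1 letters in 1 (6.75% of all), while the AP-1 letters occurred in 2 of the 5 megakaryocyte windows. Where a gene has 2 windows, they overlap for Kit, Ptprc and Fcgr3 and lie apart for Runx1, Gata2 and Coro1a. A match of letters is a description of the sequence only.

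Among the progenitor genes, Myb stood apart. Myb encodes a transcription factor needed by progenitors of the later, definitive wave, whereas primitive red cells and the earliest macrophages of the mouse form without it. Its representative probe set read 8.18 and 8.28 in the control pool and 6.74 and 6.82 in the null pool. The portions of a pool lay close together and the pools were far apart. Myb fell by 1.45 log2 units (SE 0.07; limma, adjusted p = 0.00077). The other probe sets of Myb fell too, with differences of -1.63 (adjusted p = 0.00103) and -1.96 (adjusted p = 0.00068). The last of these read 3.91 and 3.84 on the null arrays and belongs to the dimmest 40% of probe sets on the arrays, so that its fold is read off near the lower end of the scale. The representative probe sets of Myb, C1qb, Laptm5 and Aif1 are of kinds that Affymetrix marks as able to match other transcripts, whereas both other probe sets of Myb are not.

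Kit, the receptor for stem cell factor, is carried by blood progenitors and also by germ cells and melanoblasts. It read 8.24 and 8.22 in the control pool and 8.83 and 8.77 in the null pool, with no overlap. The difference of 0.56 log2 units (SE 0.06; limma, adjusted p = 0.00392) was 1.48-fold and lay just under the fold limit. It passed that limit with quantile normalization applied once more, at 0.63, and without null replicate 2, at 0.59. Its other probe set differed by 0.33 (adjusted p = 0.0603). Of 10 measured markers of melanoblasts and germ cells, 0 rose and 0 fell, where 3.58% of all genes rose and 8.06% fell. These markers had a median difference of -0.11. Their summed linear level was 742 and 741 in the control pool and 703 and 664 in the null pool. Their greatest differences were those of Sox10 (-0.47), a factor of neural crest and melanoblasts, and Mitf (0.39), the melanocyte regulator, both under the fold limit.

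For Runx1, the transcription factor through which blood progenitors emerge from endothelium, the probe sets went apart. The representative one read 6.79 and 6.49 in the control pool and 6.75 and 6.74 in the null pool, which overlap (difference 0.10, adjusted p = 0.572). Of its other 5 probe sets, 2 read lower in the null pool, at -0.49 (adjusted p = 0.0199) and -0.23 (adjusted p = 0.0491), and 3 read higher, from 0.05 to 0.30, with adjusted p-values of 0.112 or more. None of the 6 reached the fold limit, and the lower-reading ones are among the dimmest probe sets. Gata2, a zinc finger factor of stem cells, endothelium and neural tube, read 8.17 and 8.12 against 8.03 and 8.09, a difference of -0.08 (adjusted p = 0.405). Its other probe set read 6.75 and 6.87 in the control pool and 7.21 and 7.48 in the null pool, a difference of 0.54 (adjusted p = 0.0236) under the fold limit. The probe sets of Gata2 thus gave different readings.

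Spi1, which encodes the myeloid transcription factor PU.1, read 6.51 and 6.35 in the control pool and 6.33 and 6.05 in the null pool. Both null values lay below both control values, but the difference of -0.24 (SE 0.12; limma, adjusted p = 0.207) was not called. Mpo, the granule enzyme myeloperoxidase of granulocyte precursors, read 7.19 and 7.06 against 6.91 and 7.04, a difference of -0.15 (adjusted p = 0.24). Over the 6 progenitor genes the median difference was -0.12, with 4 below 0 and 2 above.

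Progenitor genes outside the 32 were read from a separate list of 22. Of these 2 rose and 2 fell, where 3.58% of all genes rose and 8.06% fell, and their median difference was -0.32. On both null arrays 14 of the 22 read lower than on both control arrays and 3 higher, where 39.3% and 28.9% of all genes did. Fli1, an ETS factor of endothelium and megakaryocytes, read 9.09 and 9.12 in the control pool and 8.46 and 8.24 in the null pool (-0.76, adjusted p = 0.00485), and its other probe set fell as well. Cbfb, which encodes the partner subunit of RUNX proteins, read 11.06 and 11.12 against 10.33 and 10.36 (-0.75, adjusted p = 0.002). The genes that rose were Erg (0.64, adjusted p = 0.00659), an ETS factor of stem cells and endothelium, and Cd93 (0.66, adjusted p = 0.00245), a surface protein of endothelium and early progenitors. The other probe set of Erg differed by 0.56 (adjusted p = 0.0173), under the fold limit, and of the other 4 of Cd93 only 1 rose.

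The fall of the macrophage genes was most marked in complement C1q, the starter molecule of the classical complement cascade, which tissue macrophages secrete and whose 3 chains are encoded by C1qa, C1qb and C1qc. C1qa read 5.85 and 6.08 in the control pool and 4.85 and 4.79 in the null pool, and fell by 1.14 log2 units (SE 0.10; limma, adjusted p = 0.00198). C1qc read 6.17 and 6.21 against 5.22 and 5.13, a fall of 2.03-fold (adjusted p = 0.00117). C1qb read 7.34 and 7.70 against 6.44 and 6.60, a fall of 2.00-fold (adjusted p = 0.00715). All 3 chains thus read about a log2 unit lower on both null arrays. The null values of C1qa and C1qc lay at levels of the dimmest 40% of probe sets. Their folds are thus read off towards the lower end of the scale. The other 2 probe sets of C1qb fell further, with differences of -1.44 and -1.63 (adjusted p = 0.00219 and 0.000665), and the former is not of the kind marked as able to match other transcripts. For the representative probe set of C1qb the portions were less close, and without null replicate 1 its difference of -0.92 missed the threshold (limma, adjusted p = 0.0554). Epha8, which is next to C1qa on the other side and was named for its position, read 5.52 and 5.42 against 5.50 and 5.25 without a call (-0.10, adjusted p = 0.552).

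The other macrophage genes that fell were Mrc1, Coro1a, Ctss, Cd68 and Lyz2. Mrc1, the mannose receptor of tissue macrophages and some endothelium, read 7.04 and 7.11 in the control pool and 6.04 and 6.21 in the null pool, a 1.93-fold fall (limma, adjusted p = 0.00225). Cathepsin S (Ctss), a lysosomal protease, read 6.62 and 6.73 against 5.90 and 5.88, a 1.72-fold fall (adjusted p = 0.0022). Cd68, a glycoprotein of macrophage lysosomes, read 5.78 and 5.86 against 5.15 and 5.01, a 1.67-fold fall (adjusted p = 0.00329). For each of these genes the pools lay further apart than the portions of a pool. The null values of Cd68 lay, like those of C1qa and C1qc, at levels of the dimmest 40% of probe sets. Lysozyme (Lyz2), which digests bacterial walls, read 6.87 and 6.79 against 6.11 and 6.17, a 1.61-fold fall (adjusted p = 0.00285). Coro1a, the actin regulator coronin of leukocytes, read 8.82 and 8.87 in the control pool and 8.02 and 8.02 in the null pool, a 1.77-fold fall (adjusted p = 0.00157). Of its other probe sets 1 fell (-0.64, adjusted p = 0.0262) and 1 dim probe set did not (-0.05), and the mean over all 3 missed the fold limit at -0.51.

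**Figure D2:**
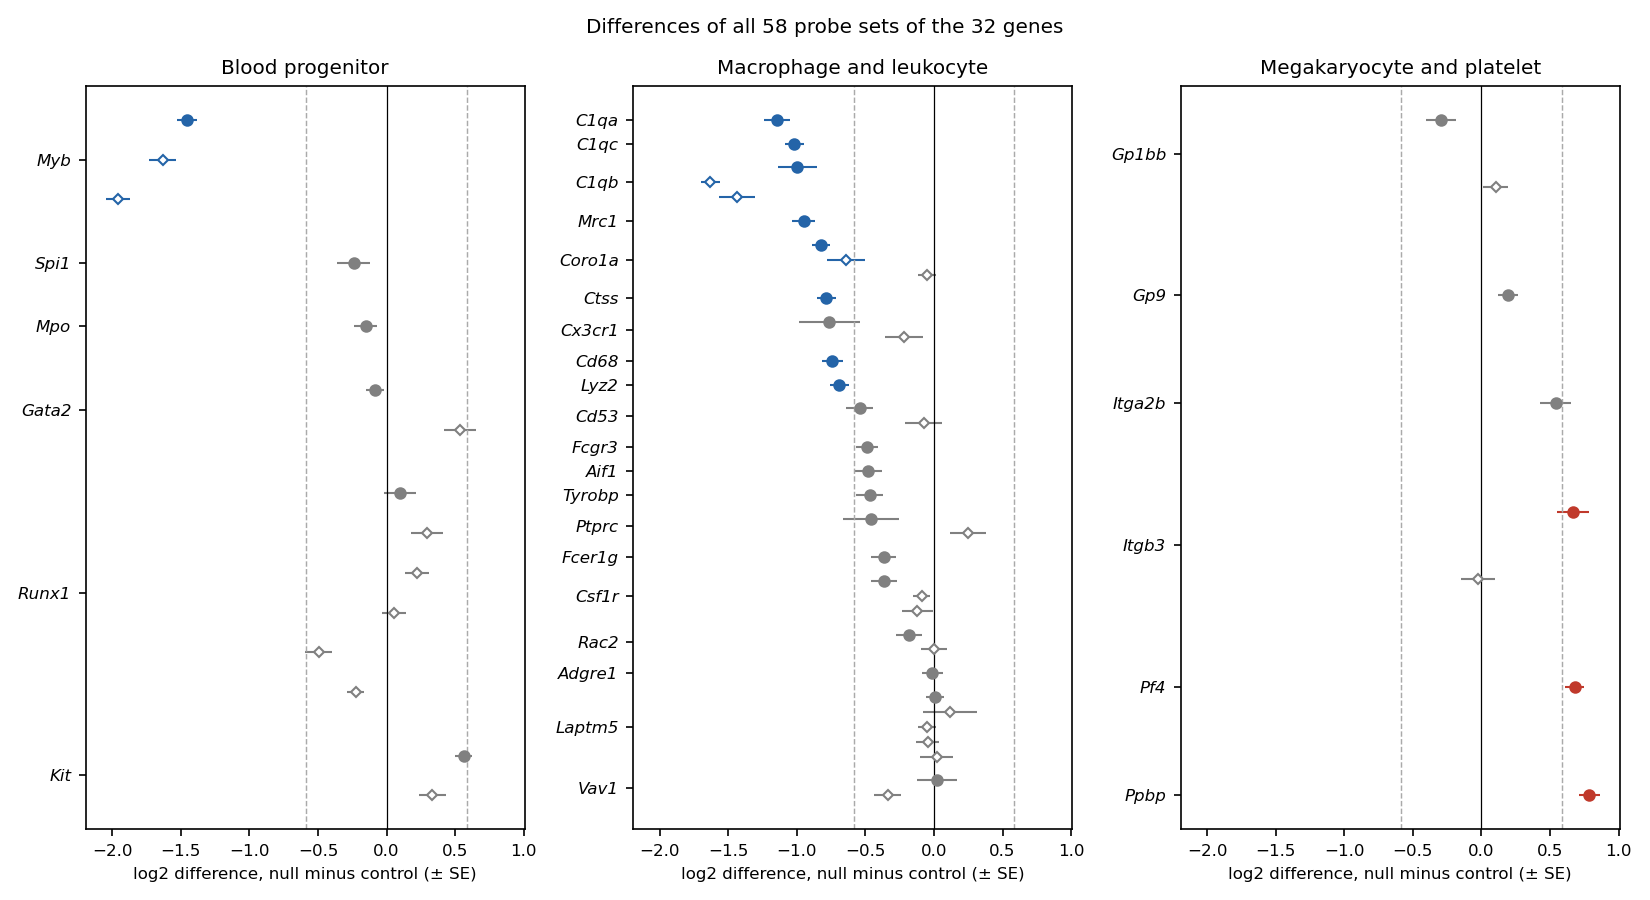
Log2 differences (null minus control, x axis, with SE as bars) of all 58 probe sets of the 32 genes; filled circles are the representative probe sets and open diamonds the others, blue marks a call as fallen, red as risen, grey no call, and dashed lines mark a 1.5-fold difference. All 3 probe sets of Myb and of C1qb are blue, whereas those of Runx1, Gata2, Itgb3, Ptprc and some other genes spread to both sides of 0.

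Cx3cr1, Ptprc and Csf1r, which encode surface proteins, were not called. Cx3cr1, the fractalkine receptor, read 5.84 and 6.21 in the control pool and 4.99 and 5.53 in the null pool, a 1.70-fold difference that missed the threshold (limma, adjusted p = 0.0556). It was called under 5 of 11 alternative ways of processing, and its other probe set differed by -0.22 (adjusted p = 0.3). Ptprc, the leukocyte phosphatase CD45, read 5.72 and 6.08 against 5.19 and 5.69 (-0.46, adjusted p = 0.164), and its other, dim probe set read higher by 0.25. For both genes the portions of a pool differed by up to 0.54 log2 units, against a median gap of 0.11 over all members. Csf1r, the receptor for the macrophage growth factors CSF1 and IL34, read 8.09 and 8.31 in the control pool and 7.80 and 7.87 in the null pool, a 1.29-fold difference below the fold limit (-0.37, adjusted p = 0.0417). Its other 2 probe sets differed by -0.12 and -0.09 (adjusted p = 0.489 and 0.347).

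The genes of Fc receptor and adaptor signalling were all lower by less than the fold limit. Fcgr3, a receptor for IgG, read 6.66 and 6.82 against 6.26 and 6.24 (-0.49, limma, adjusted p = 0.0107). Tyrobp, the adaptor DAP12, read 6.82 and 6.85 against 6.48 and 6.24 (-0.47, adjusted p = 0.023), and Fcer1g, the common gamma chain of Fc receptors, read 6.90 and 6.84 against 6.60 and 6.40 (-0.37, adjusted p = 0.0354). The tetraspanin gene Cd53 (-0.54, adjusted p = 0.0162) and Aif1, which encodes the actin-binding protein IBA1 (-0.48, adjusted p = 0.022), were also below the control values on both null arrays, while the other probe set of Cd53 differed by -0.07 (adjusted p = 0.726). Together with Csf1r these are the 6 macrophage genes whose adjusted p was under 0.05 and whose fold was too small for a call, so that 14 of 20 passed the adjusted p alone, against 33.9% of all genes.

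Several leukocyte genes showed little difference. Adgre1, an adhesion receptor widely used as a macrophage marker, read 5.60 and 5.67 in the control pool and 5.56 and 5.69 in the null pool (-0.01, limma, adjusted p = 0.935). Laptm5, a lysosomal protein of blood cells, read 7.42 and 7.50 against 7.47 and 7.46 (0.01, adjusted p = 0.969), and its other 4 probe sets lay between -0.05 and 0.12. The arrays of the pools overlapped for both genes. Rac2, a small GTPase of leukocytes, differed by -0.18 (adjusted p = 0.212), and its other probe set by less than 0.01 (adjusted p = 1). Vav1, an exchange factor for such GTPases, differed by 0.02 on its representative probe set (adjusted p = 0.931) and by -0.34 on the other (adjusted p = 0.0539), both of them dim. In all, 17 of 20 macrophage genes read lower on both null arrays than on both control arrays and 0 read higher, where 39.3% of all genes read lower and 28.9% higher in that way.

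A separate list of 36 macrophage genes outside the 32, of which 31 were measured, did not show this fall. Of these 1 rose and 1 fell, where 3.58% of all genes rose and 8.06% fell. The median difference of the 31 was 0.04. On both null arrays 7 read lower than on both control arrays and 7 higher, where 39.3% and 28.9% of all genes did. P2ry12, a purine receptor of microglia, read 4.56 and 4.31 in the control pool and 3.92 and 3.44 in the null pool (-0.76, limma, adjusted p = 0.0349). Stab1, a scavenger receptor of macrophages and sinusoidal endothelium, read 7.68 and 7.60 against 8.35 and 8.42 (0.74, adjusted p = 0.00245). The list held 10 genes among the dimmest 40% of probe sets, compared with 2 of the 20 macrophage members. Of all 18193 genes, 13136 had a representative probe set brighter than that. Whether dimness bears on the difference between the lists was not tested. Markers of granulocytes, mast cells and lymphocytes, 12 measured with 10 of them among the dimmest, gave 0 calls, where 11.6% of all genes were called. The median of these markers was -0.01. The summed linear level of these 12 was 487 and 455 in the control pool and 455 and 440.2 in the null pool. S100a8, a granulocyte protein gene, differed by -0.23 (adjusted p = 0.079) and Cpa3, a mast cell protease gene, by 0.25 (adjusted p = 0.0411), on values of 3.87 to 4.84.

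**Figure D3:**
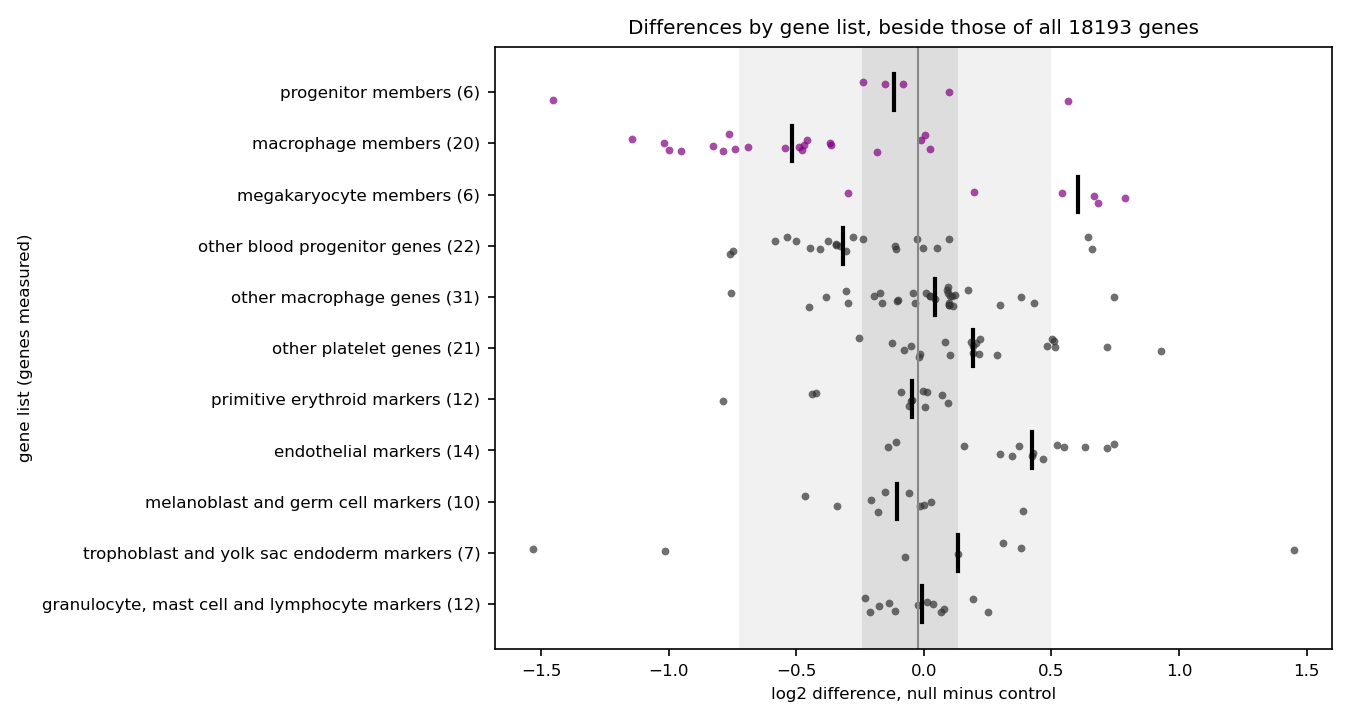
Log2 differences (null minus control, x axis) of the measured genes of each list (rows, number of genes in brackets), with the list's median as a black bar; the dark band spans the quartiles of all 18193 genes (-0.24 to 0.13), the light band their 5th to 95th percentile (-0.72 to 0.49), and the grey line their median. The median of the macrophage members, -0.52, lies to the left of that of the other macrophage genes, 0.04, and 4 of the 6 megakaryocyte members lie to the right of the light band.

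The megakaryocyte genes that rose encode proteins of platelet granules and surface. Ppbp, the precursor of platelet basic protein, a chemokine of alpha granules, read 7.06 and 7.19 in the control pool and 7.90 and 7.92 in the null pool, a 1.73-fold rise (limma, adjusted p = 0.00251). Pf4, platelet factor 4, the other granule chemokine, read 8.96 and 8.85 against 9.60 and 9.57, a 1.60-fold rise (adjusted p = 0.00307). Itgb3, the beta chain of the fibrinogen receptor of platelets, read 6.51 and 6.20 against 7.02 and 7.02, a 1.59-fold rise (adjusted p = 0.0134). The null portions of these 3 genes were close to each other and above both control portions. The rise of Itgb3 rests on 1 probe set, as the other read 5.74 and 5.41 against 5.59 and 5.52 (-0.02, adjusted p = 0.918). Its call was also lost when an array was left out, at 0.51 without control replicate 2 (adjusted p = 0.0381), at 0.66 without null replicate 1 (adjusted p = 0.0786) and at 0.67 lacking null replicate 2 (adjusted p = 0.0821). With the arrays centred on their poly-A spikes, which lowers every null value relative to the control values, none of the 3 genes kept its call. Ppbp then differed by 0.55, Pf4 by 0.45 and Itgb3 by 0.43.

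Itga2b, the alpha chain CD41 that pairs with the product of Itgb3 and is an early mark of embryonic blood progenitors, read 7.95 and 7.67 in the control pool and 8.40 and 8.30 in the null pool. The pools did not overlap, and the difference of 0.54 (SE 0.11; limma, adjusted p = 0.0218) was 1.46-fold and under the fold limit. Gp9 and Gp1bb encode subunits of the receptor for von Willebrand factor. Gp9 differed by 0.19 (adjusted p = 0.11), both null values lying above both control values, and Gp1bb read 6.64 and 6.53 against 6.16 and 6.42 (-0.30, adjusted p = 0.106). These partners of 1 receptor thus differed in sign and neither was called. The other probe set of Gp1bb differed by 0.10 (adjusted p = 0.443). Of the 6 megakaryocyte genes 5 read higher on both null arrays than on both control arrays and 1, Gp1bb, read lower, where 28.9% of all genes read higher and 39.3% lower in that way.

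On chromosome 5 the adjacent genes Ppbp and Pf4 are flanked by Cxcl5 and Cxcl3, chemokine genes named here for their position. Cxcl5 read 2.99 and 3.31 in the control pool and 2.96 and 2.75 in the null pool (limma, adjusted p = 0.175), and Cxcl3 read 3.10 and 2.94 against 2.93 and 3.03 (adjusted p = 0.75). Neither flanking gene was called, while both platelet chemokine genes rose. The flanking genes read near the lower end of the scale, where a difference could be missed.

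Platelet genes outside the 32 came from a list of 25, of which 21 were measured. Of these 2 rose and 0 fell, where 3.58% of all genes rose and 8.06% fell. The median difference of the 21 was 0.19. On both null arrays 12 read higher than on both control arrays and 2 lower, where 28.9% and 39.3% of all genes did. Clec1b, the platelet receptor CLEC-2 for podoplanin, read 8.38 and 8.36 in the control pool and 9.09 and 9.09 in the null pool, a 1.64-fold rise (limma, adjusted p = 0.00196). Thbs1, thrombospondin 1, a protein of platelet granules that many other cells also make, read 8.16 and 8.13 against 9.10 and 9.04, a 1.91-fold rise (adjusted p = 0.0013), and its other probe set rose too.

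Markers of the cells that share the circulation moved in different ways. Primitive red cells make up nearly all blood cells at this stage, and of 12 of their measured markers 0 rose and 1 fell, with a median of -0.05. On both null arrays 7 markers read lower than on both control arrays and 2 higher, where 39.3% and 28.9% of all genes did. The summed linear level of the 12 red cell markers was 73300 and 73560 in the control pool and 71400 and 70390 in the null pool. The gene that fell was Klf1, a regulator of globin genes, from 9.55 ± 0.12 to 8.76 ± 0.05 (log2, SD, n = 2 portions; limma, adjusted p = 0.00329). Of 14 endothelial markers 3 rose and 0 fell, where 3.58% of all genes rose and 8.06% fell. Their median was 0.43 and their summed linear level 4579 and 4476 against 5891 and 5894. On both null arrays 11 of the 14 read higher than on both control arrays and 2 lower, where 28.9% and 39.3% of all genes did. The markers that rose were Kdr (0.74), a receptor of VEGF, Pecam1 (0.72), the adhesion molecule CD31, which platelets and leukocytes also carry, and Esam (0.63), an adhesion molecule of endothelium and platelets. The part of endothelial RNA in the values of Kit, Mrc1 and the megakaryocyte genes was not tested.

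Markers of yolk sac endoderm and trophoblast were read because the yolk sac is the tissue where these blood cells arise. The labels do not say whether the yolk sac was kept with the embryos. Of 7 measured genes of this list 1 rose and 2 fell, where 3.58% of all genes rose and 8.06% fell. The median difference of the 7 was 0.13. On both null arrays 4 read higher than on both control arrays and 2 lower, where 28.9% and 39.3% of all genes did. Ttr, transthyretin, read 8.90 and 9.04 in the control pool and 7.46 and 7.41 in the null pool (-1.53, limma, adjusted p = 0.00077), and alpha-fetoprotein (Afp) fell 2.02-fold (adjusted p = 0.00106), and 2 of its other 4 probe sets fell too. Cubn, the uptake receptor cubilin, read 5.63 and 4.88 against 6.73 and 6.68 (1.45, adjusted p = 0.0126), and its other probe set was not called. The summed linear level of this list was 4289 and 4449 in the control pool and 2299 and 2230 in the null pool. Most of that sum came from Afp, which read 11.82 and 11.86 in the control pool and 10.84 and 10.81 in the null pool. The sum thus does not speak for the list as a whole. The part of yolk sac tissue in the values of the 32 genes was not tested.

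**Figure D4:**
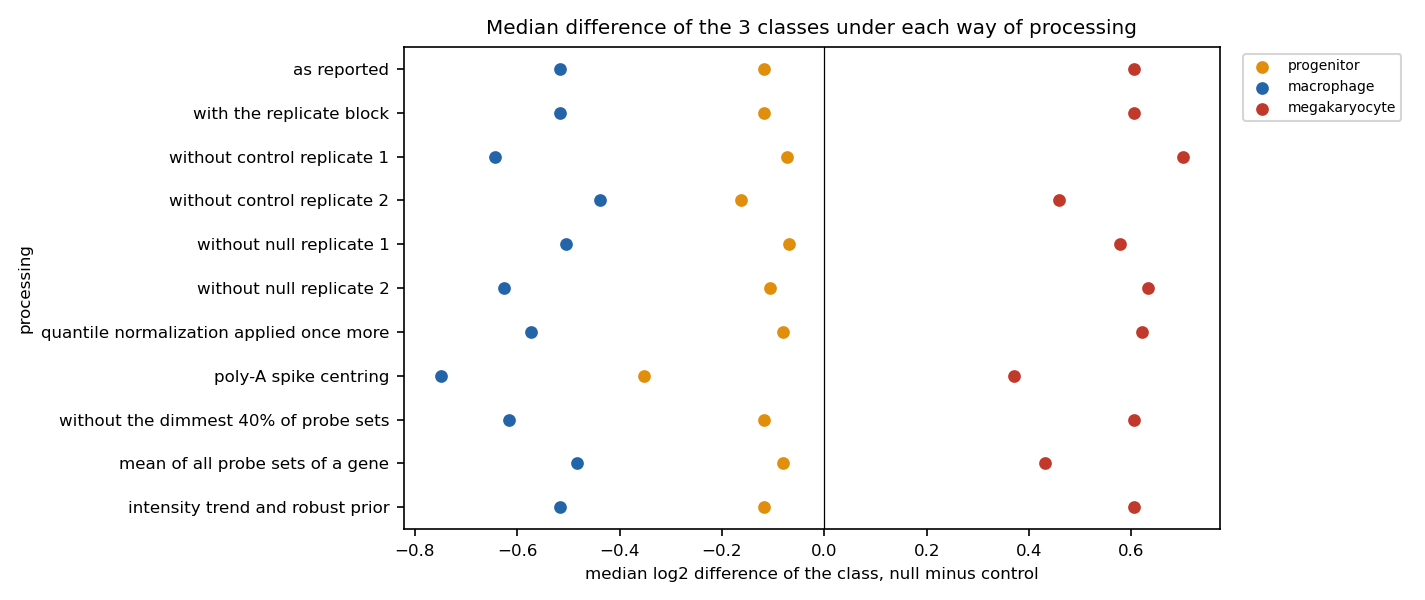
Median log2 difference (null minus control, x axis) of the progenitor, macrophage and megakaryocyte members under the reported processing and 10 alternatives (rows). In all 11 the macrophage median lies below the progenitor median, which is below 0, and the megakaryocyte median lies above 0.

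The medians of the 3 classes kept their order under each of these ways of processing. The replicate block and the other prior leave every difference as it was, so that they could not change this order. The megakaryocyte median lay 1.12 log2 units above the macrophage median, and this gap was between 0.90 and 1.34 under the other ways of processing. Centring on poly-A spikes shifted the median over all genes to -0.26 and left the gap at 1.12, as it shifts every gene alike. On that scale 16 of 20 macrophage genes fell, where 17.7% of all genes fell, and 0 of 6 megakaryocyte genes rose, where 1.93% of all genes rose.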

How the data were processed

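Total RNA of whole embryos was hybridised to 4 Affymetrix arrays, 2 portions of 1 pool for each genotype. The deposited table holds log2 expression values made by the authors by RMA with affy (an R package), as the submitters' processing notes name them without versions. RMA corrects background, equalises the distribution of probe intensities across arrays and gives 1 value per probe set, so that total RNA per embryo cannot be read from it. Values were used as deposited. Of 45101 probe sets, 64 Affymetrix controls were left out. The platform annotation names 1 gene for 34945 of the 45037 tested probe sets, several for 932, which were not named, and the other 9160 are unnamed here. A probe set that names both Septin5 and Gp1bb was thereby not used. Gene numbers matched RefSeq (GRCm38.p6) for 34741 probe sets and changed 0 symbols.

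Tests used limma 3.58.1 under R 4.3.3 (lmFit and eBayes, genotype as the only term, two-sided, Benjamini-Hochberg over 45037 probe sets). The fit was tested on simulated data. The number of arrays limits the precision. Summed linear levels are sums of 2 to the power of the log2 values over the representative probe sets of a list. Replicate numbers were not taken to pair portions, as the labels do not tie them and the correlation of deviations of the arrays numbered 1 was 0.06. The members and lists were chosen with earlier results of these data known. Named were all members, Cop1, and up to 4 called genes of each other list, or the 2 of greatest difference where none was called; neighbouring genes were added by position after the values were seen. Alternatives were a replicate block, leaving out each array, other normalizations, a filter on dim probe sets, probe set means, another prior and no fold limit.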

Additional observations from a re-analysis of the deposited data

How the results depend on the processing

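With the replicate block, 2102 genes were called in place of 2119, and the members called were 1 progenitor, 9 macrophage and 3 megakaryocyte genes, the added one being Cx3cr1 (-0.76, adjusted p = 0.0122). Myb, C1qa, C1qc, Mrc1, Ctss, Cd68 and Lyz2 kept their calls under all 11 alternatives, among which dropping the fold limit could not remove a call. Leaving out an array, with the lone array of a genotype assumed to vary like the others, gave 1 to 2 called progenitor genes (0 to 1 risen), 8 to 10 fallen macrophage genes and 2 to 4 risen megakaryocyte genes, with medians of -0.16 to -0.07, -0.64 to -0.44 and 0.46 to 0.70. Kit was the progenitor gene added without null replicate 2 (0.59, adjusted p = 0.0301), and it was also added with quantile normalization applied once more, which gave 2 called progenitor genes, 1 of them risen. Poly-A spike centring gave 3567 called genes (352 risen, 3215 fallen), 16 called macrophage genes, all fallen, and 0 called megakaryocyte genes, with medians of -0.35 (progenitor), -0.75 (macrophage) and 0.37 (megakaryocyte). So 9.87% of called genes were rises on that scale, against 30.8% as reported. It rests on spike medians of 7.40 and 7.63 (control) and 7.67 and 7.83 (null), so the gap between the control portions is about as large as that between the pools. With the adjusted p alone, 6165 genes were called (2192 risen, 3973 fallen), with 2 progenitor genes (1 risen), 14 macrophage genes, all fallen, and 4 megakaryocyte genes. Without the dimmest 40% of probe sets the macrophage median was -0.62, over 18 genes, and with the mean of all probe sets of a gene the megakaryocyte median was 0.43. Cx3cr1 was called with the block, with a repeated quantile normalization (-0.83), poly-A centring, the dim filter and the trended prior. Signs turned in genes near 0. Runx1 read -0.052 to 0.25 when an array was left out, -0.13 with poly-A centring and -0.0080 as a mean of probe sets, and Gata2 0.23 as a mean of probe sets. Laptm5 read -0.033 to 0.043 when an array was left out and -0.23 with poly-A centring, Adgre1 -0.080 to 0.056 when an array was left out, and Gp9 -0.039 with poly-A centring. Vav1 read -0.13 to 0.17 when an array was left out, -0.048 with repeated quantile normalization, -0.21 with poly-A centring and -0.16 as a mean of probe sets. The cause of these changes was not tested.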
